A study of Mus musculus with 6 samples.

Results

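The genes described here are those of interferon gamma (IFN-γ) and of the regulators and receptors around it in Th1 cells: *Ifng*, *Tbx21*, *Hlx*, *Il12rb1*, *Il12rb2*, *Il18r1*, *Il18rap*, *Ifngr1*, *Ifngr2* and *Cxcr3*. These 10 genes were selected by symbol from the 14744 genes of the table, with earlier values of the same contrast known, so their differences between the groups are a description with no test. RNA was sequenced from T follicular helper (Tfh) cells, which give help to germinal center B cells, sorted as CD4+B220-CD44+PD-1+CXCR5+ from the mesenteric lymph nodes (MLNs) of mice labelled C57BL/6 (C57BL/6J in the study's methods), with no treatment named in the labels. The 3 WT samples came from mice that the study describes as *Cd4*-Cre littermates, and the 3 others had the genotype *Bach2* fl/fl *Cd4*-cre, where the Cre acts in all cells that have expressed *Cd4*, CD8 T cells included. An age of 2 to 3 months is given for the mice of this experiment, and 10000 to 30000 cells per sample were sorted. Whether each sample was a separate mouse is not given in the sources used here, so the spread between samples may be in part technical.

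Th1 cells form where IL-12 and IL-18, made by antigen-presenting cells, act on their receptors on T cells. IL-12 acts through STAT4 on the genes of IFN-γ and of T-bet, the Th1-defining transcription factor, and IFN-γ acts back on T cells and on other cells through its own receptor. In lymph nodes, Tfh cells can make IFN-γ as well as IL-4, and these cytokines direct B cells to different antibody isotypes.

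The promoters of *Ifng* and *Cxcr3* are shown because the values of both genes lay below every WT value in all 3 libraries labelled Bach2-deficient. RefSeq windows on GRCm38.p6, from 250 bases before to 50 bases after a gene's start, were found for 9 of the 10 genes. The *Ifng* window is chr10:118440796-118441095 on the plus strand, and the *Cxcr3* window is chrX:101734098-101734397 on the minus strand. Capitals mark the matches to the motifs searched.
Ifng: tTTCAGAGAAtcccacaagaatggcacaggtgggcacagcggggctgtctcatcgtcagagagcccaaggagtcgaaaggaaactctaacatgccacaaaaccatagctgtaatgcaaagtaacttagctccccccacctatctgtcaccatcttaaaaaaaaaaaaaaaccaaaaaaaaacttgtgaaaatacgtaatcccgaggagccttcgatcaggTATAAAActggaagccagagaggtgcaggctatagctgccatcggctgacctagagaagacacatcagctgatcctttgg
Cxcr3: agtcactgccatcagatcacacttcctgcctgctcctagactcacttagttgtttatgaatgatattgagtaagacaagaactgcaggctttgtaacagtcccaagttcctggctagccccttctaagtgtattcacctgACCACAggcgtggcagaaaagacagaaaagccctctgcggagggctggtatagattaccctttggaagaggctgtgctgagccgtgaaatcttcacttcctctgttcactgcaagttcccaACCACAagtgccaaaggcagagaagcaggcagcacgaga
In the *Ifng* window the capitals are a match to the STAT motif GAS (TTCNNNGAA), whose first base is at -249 from the start, and a TATA box (TATAAAA), whose first base is at -30. In the *Cxcr3* window both are matches to the RUNX motif TGTGGT, read on the other strand, with first bases at -110 and at 12. Positions count from 1 at the start, and the base before it is -1. GAS was present in 8.30% of the 32851 promoter windows, the RUNX motif in 16.8%, and the TATA box, searched on the gene's strand only, in 3.27%. The T-box motif TCACACCT (1.28% of windows) and the AP-1 motif TGANTCA (7.81%), like GAS and RUNX searched on both strands, had no match in any window of the 9 genes. GAS was also found in a window each of *Il12rb2* and *Il18r1*, and the RUNX motif in a window each of *Il18r1* and *Il18rap*. The matches shown do not overlap each other, and a match is a description of the letters only.

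The values are normalized read counts, that is, reads per gene divided by a size factor of each library. Their sums were 7809702, 7387316 and 8135325 in WT replicates 1, 2 and 3 and 7456435, 7362290 and 7361229 in replicates 1, 2 and 3 labelled Bach2-deficient. In 5 libraries the values gave back whole reads, between 5045131 and 10987752 per library, and 100% of the values were whole multiples of the step of their library within 0.1 step. WT replicate 1 stood apart from the other 5 libraries. It had 11648 genes above 0, where the others had 13111 to 13567, and its r² with the other WT libraries was 0.725 and 0.743, where these had 0.901 with each other (genes are the points here, and are not independent of each other). The log2 differences of the Th1 genes, of the other genes named with a test and of the pathway lists are therefore given with and without WT replicate 1. For the lists of cell markers, median log2 differences are given for the NK, CD8 T cell, B cell and Th17 genes only.

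*Bach2*, the deleted gene, was examined first (chromosome 4 of GRCm38, 32238804 to 32586108). Its normalized read counts were 233, 222 and 105 in the WT libraries and 399, 763 and 591 in the others. Each library labelled Bach2-deficient was thus higher than each WT library, with a log2 difference of 1.68 (standard error 0.37) on the log2(value + 1) scale, and 1.88 without WT replicate 1. Exons that the deletion does not touch contribute to a count per gene, and 2 annotated genes on the same strand and 1 on the other overlap *Bach2*. The count per gene was thus higher where the label names a deletion, and the table has no count of the deleted exons. For this reason the text speaks of libraries labelled Bach2-deficient, and each direction given rests on that label. Differences between the groups also varied with transcript length, with a Spearman's rho of 0.320 across 11264 genes between the log2 difference and the length of the longest transcript. Longer transcripts were thus more often higher in the libraries labelled Bach2-deficient, and the part of this trend in the differences of single genes was not tested beyond the alternative that removes it.

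**Figure D1:**
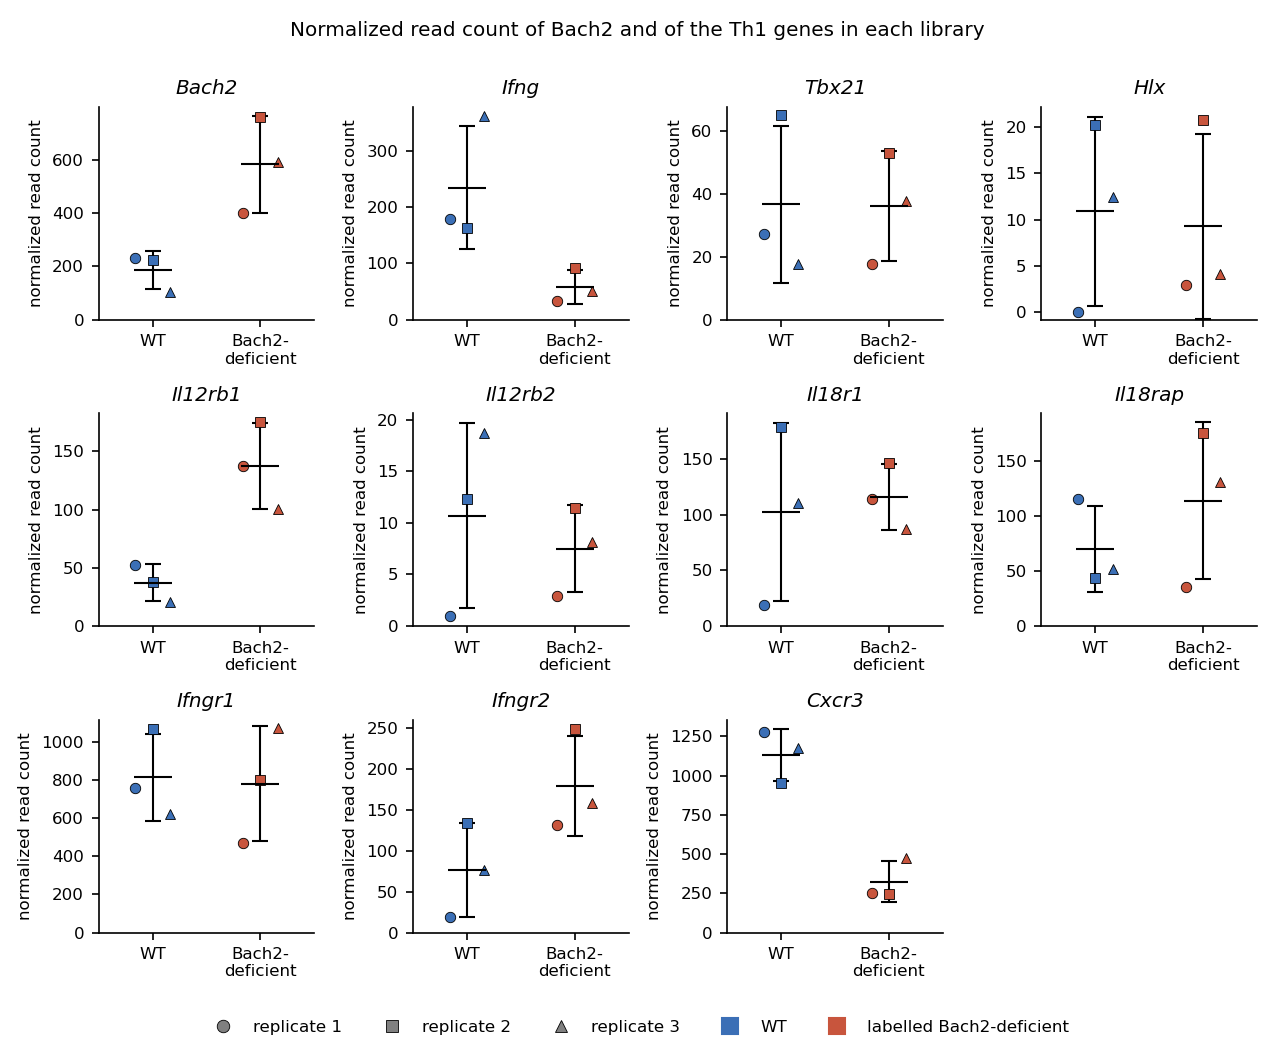
Normalized read count (y axis) of *Bach2* and the 10 Th1 genes in the 3 WT libraries (blue) and the 3 libraries labelled Bach2-deficient (red), with replicates as symbols and the mean ± SD in black. *Ifng* and *Cxcr3* are lower, and *Il12rb1* and *Bach2* higher, in all 3 libraries labelled Bach2-deficient, and the groups of the other 7 genes overlap.

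All 10 genes passed the filter of at least 10 normalized counts in at least 3 libraries. All 3 values of the libraries labelled Bach2-deficient lay below the WT values for 2 of the 10 genes, *Ifng* and *Cxcr3*, where 12.2% of the 11296 genes tested did so. They lay above the WT values for 1 gene, *Il12rb1*, where 14.6% of all genes tested did so. Without WT replicate 1 these counts were 3 genes lower (*Il12rb2* joining, at 18.1% of all genes) and 1 gene higher (20.5%). With each of the other libraries left out in turn, 2 of the Th1 genes were lower and 1 to 3 higher. Of all genes, 18.8% and 15.1% were lower without WT replicates 2 and 3, and 14%, 14.5% and 23% without replicates 1, 2 and 3 labelled Bach2-deficient, with 21.6%, 19.2%, 17%, 17% and 27.2% higher in the same order. The genes were chosen on this contrast, so nothing is read from these shares.

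*Ifng* encodes IFN-γ, the cytokine that defines Th1 responses, and sits on GRCm38 chromosome 10 (118441046 to 118445892). Its values were 179.7, 164 and 362 normalized counts in the WT libraries and 32.5, 91.1 and 51.1 in the libraries labelled Bach2-deficient. WT replicate 3 was the highest library, and the lowest WT library was 1.80 times the highest library labelled Bach2-deficient. The means were 235 ± 110.1 and 58.3 ± 29.9 (SD, n = 3), a ratio of 4.04. In the 5 libraries other than WT replicate 1 the log2 difference was -2.17 (standard error 0.50), against -2.02 (0.49) with it. In these bulk samples, fewer cells making *Ifng* and less *Ifng* RNA per cell cannot be told apart. A gene annotated on the same strand, *Gm49751*, overlaps *Ifng*, and reads from it cannot be told apart.

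*Cxcr3*, on chromosome X from 101731535 to 101734269, encodes the chemokine receptor that guides Th1 cells to tissues in which IFN-γ has induced its ligands. It was at 1276, 952 and 1174 normalized counts in WT and at 251, 247 and 477 in the others. WT replicates varied little (1134 ± 165, SD, n = 3), replicate 3 labelled Bach2-deficient was the highest of its group (325 ± 131, SD, n = 3), and the groups did not overlap. The ratio of the WT mean to the other was 3.49, and the log2 difference was -1.86 (standard error 0.29), or -1.77 without WT replicate 1. Of the 45 pairs among the 10 genes, *Ifng* and *Cxcr3* ranked 3 for closeness of profile, with a root mean squared distance of 0.65 on the log2 scale over the 6 libraries. This distance includes the difference between the groups, which both genes share. Within the groups their orders differed. *Ifng* was highest in WT replicate 3 and in replicate 2 labelled Bach2-deficient, where *Cxcr3* was lowest of all, and *Cxcr3* was highest of WT in replicate 1. WT replicate 2 was the lowest WT library of both.

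Of the Th1 transcription factors, *Tbx21*, the gene of T-bet, is found on chromosome 11 (97098071 to 97115331) and had 27.3, 65.1 and 17.7 normalized counts in the WT libraries. The libraries labelled Bach2-deficient had 17.7, 52.9 and 37.8, all within the range of the WT values. WT replicate 3, with the highest *Ifng* of all 6 libraries, had the lowest *Tbx21*. The means were 36.7 ± 25.1 and 36.2 ± 17.7 (SD, n = 3), with a log2 difference of 0.06 (standard error 0.72) that turned to -0.05 without WT replicate 1. Read numbers were low, and replicate 1 labelled Bach2-deficient held 12 reads of *Tbx21*, with an exact 95% Poisson interval of 6.20 to 20.96 reads that covers counting error only, since PCR copies of a molecule are not told apart. *Hlx* encodes a homeobox protein that acts with T-bet in Th1 cells (chromosome 1, 184727140 to 184732619). It was at 0, 20.2 and 12.5 normalized counts in WT and at 2.96, 20.8 and 4.09 in the others. The 0 of WT replicate 1 allows up to 3.03 normalized counts (3 steps of that library), and the groups overlapped. The log2 difference of *Hlx* was 0.21 (standard error 1.49) and turned to -1.15 without that library.

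The IL-12 receptor is a pair of chains, and its chains differed in level and in their values across libraries. *Il12rb1* encodes the β1 chain, which the receptor for IL-23 also uses, and lies on chromosome 8 from 70808449 to 70821424. It was at 52.5, 38.1 and 20.8 normalized counts in WT and at 137, 175 and 100.2 in the libraries labelled Bach2-deficient. The lowest library labelled Bach2-deficient was 1.91 times the highest WT library, the opposite direction to that of *Ifng*. The means were 37.1 ± 15.9 and 138 ± 37.3 (SD, n = 3), a ratio of 3.70, and the log2 difference was 1.92 (standard error 0.50) and 2.21 without WT replicate 1. *Il12rb2* encodes the β2 chain, which completes the IL-12 receptor and is induced in Th1 cells (chromosome 6, 67291318 to 67376188). It was at 1.01, 12.3 and 18.7 normalized counts in WT and at 2.96, 11.4 and 8.18 in the others, that is, 1 to 18 reads or steps per library, and *Serbp1* overlaps it on the other strand. WT replicate 1 held the lowest value, and the log2 difference of -0.08 (standard error 1.28) became -1.08 without that library. Per kb of transcript, *Il12rb1* was 54.3, 3.23 and 1.16 times *Il12rb2* in the WT libraries and 48.5, 16.0 and 12.8 times in the others. The highest ratio was that of WT replicate 1, with 1 step of *Il12rb2*, and without it the WT ratios lay below those of the other group.

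The IL-18 receptor chains are encoded side by side on chromosome 1, *Il18r1* from 40465552 to 40500854 and *Il18rap* from 40515362 to 40551705. *Il18r1*, the ligand-binding chain, was at 19.2, 178 and 110.2 normalized counts in WT and at 114, 146 and 86.9 in the libraries labelled Bach2-deficient. WT replicate 1 alone was low, and its removal turned the log2 difference from 0.63 (standard error 0.72) to -0.31. *Il18rap*, the signalling partner chain, was at 115, 43.7 and 52.0 in the WT libraries and at 35.5, 175 and 131 in the others. Its groups overlapped, and the log2 difference was 0.54 (standard error 0.65) and 0.96 without WT replicate 1. The chains did not follow each other from library to library. Per kb, *Il18r1* was 0.196, 4.79 and 2.49 times *Il18rap* in WT replicates 1, 2 and 3 and 3.77, 0.982 and 0.781 times in the others.

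The IFN-γ receptor has a ligand-binding chain, encoded by *Ifngr1* (chromosome 10, 19591949 to 19610229), and a signalling chain, encoded by *Ifngr2* (chromosome 16, 91547072 to 91565623). *Ifngr1* was at 758, 1067 and 621 normalized counts in WT and at 470.0, 803 and 1075 in the others. These ranges overlap almost fully, with a log2 difference of -0.10 (standard error 0.32) and -0.14 without WT replicate 1. *Ifngr2* was at 19.2, 133 and 76.9 in the WT libraries and at 132, 249 and 159 in the libraries labelled Bach2-deficient. The groups overlapped by a single pair of values, WT replicate 2 and replicate 1 labelled Bach2-deficient. Its log2 difference of 1.55 (standard error 0.64) was 0.77 without WT replicate 1, so that library carried much of it. Per kb, the ratio of *Ifngr1* to *Ifngr2* was 69.4, 14.0 and 14.2 in the WT libraries and 6.27, 5.67 and 11.9 in the others, so that all 3 ratios labelled Bach2-deficient lay below the WT ratios.

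**Figure D2:**
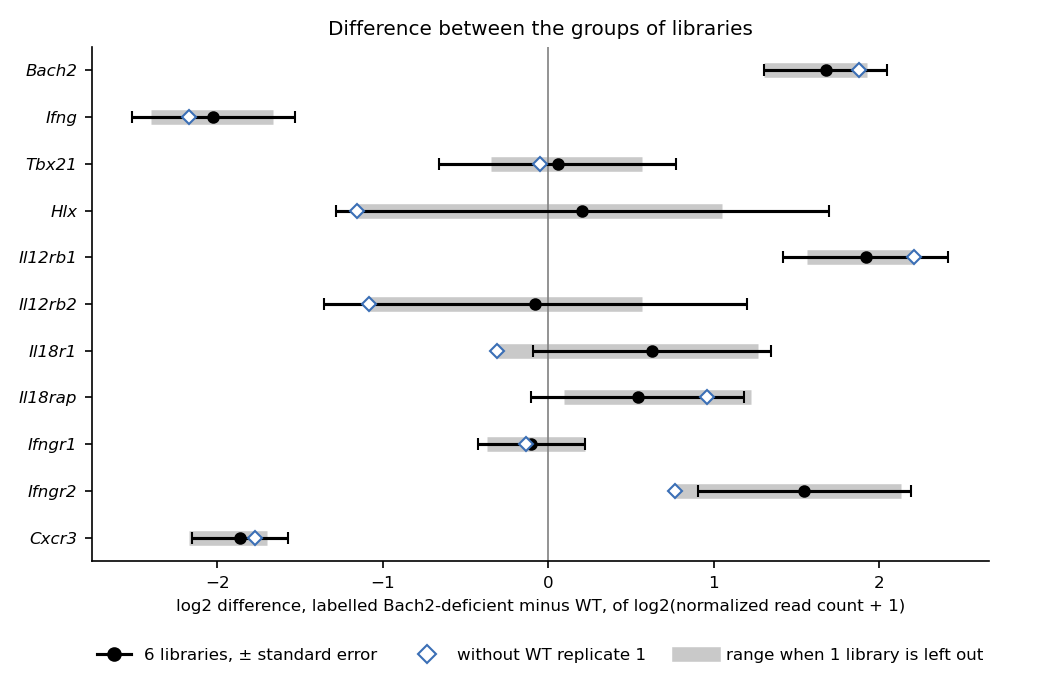
Log2 difference (x axis, libraries labelled Bach2-deficient minus WT, on log2(normalized read count + 1)) of *Bach2* and each Th1 gene, with its standard error over 6 libraries, the value without WT replicate 1 and the range over the fits that leave out 1 library. *Ifng* (-2.02) and *Cxcr3* (-1.86) lie below 0 and *Il12rb1* (1.92) above it over that whole range, while the ranges of *Tbx21*, *Hlx*, *Il12rb2*, *Il18r1* and *Ifngr1* cross 0.

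Levels of different genes were compared per kb of the longest transcript. In the WT libraries *Cxcr3* was the highest of the 10 genes, at 655 ± 95.5 (SD, n = 3) normalized counts per kb, and its lowest library was above the highest of *Ifngr1* (386 ± 108). *Ifng* ranked 3 at 195 ± 91.1, overlapping *Ifngr1* but above each library of *Il18r1* (24.7 ± 19.2). Of the 7 genes from *Il18r1* down, each overlapped the next in the order, through *Ifngr2*, *Tbx21*, *Il18rap*, *Il12rb1* and *Hlx* to *Il12rb2* (3.57 ± 2.99). In the libraries labelled Bach2-deficient *Ifngr1* was first (371 ± 143 per kb) and overlapped *Cxcr3* (188 ± 76.0), which was above each library of *Ifngr2* (48.4 ± 16.5). *Ifng* (48.2 ± 24.8) and *Il12rb1* (47.9 ± 13.0) followed, and each of these overlapped its neighbours. Without WT replicate 1 the WT means per kb kept the order given for WT except that *Il12rb1* (10.3) was above *Il18rap* (9.79). *Il4*, another cytokine gene expressed by Tfh cells, was set beside *Ifng* in the same unit. Per kb it was 7.29, 11.1 and 7.79 times *Ifng* in the WT libraries and 125, 65.2 and 89.9 times in the libraries labelled Bach2-deficient. *Cxcr5*, the receptor used in the sort, was 0.769, 0.922 and 1.06 times *Cxcr3* in the WT libraries and 4.91, 3.14 and 2.82 times in the others.

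**Figure D3:**
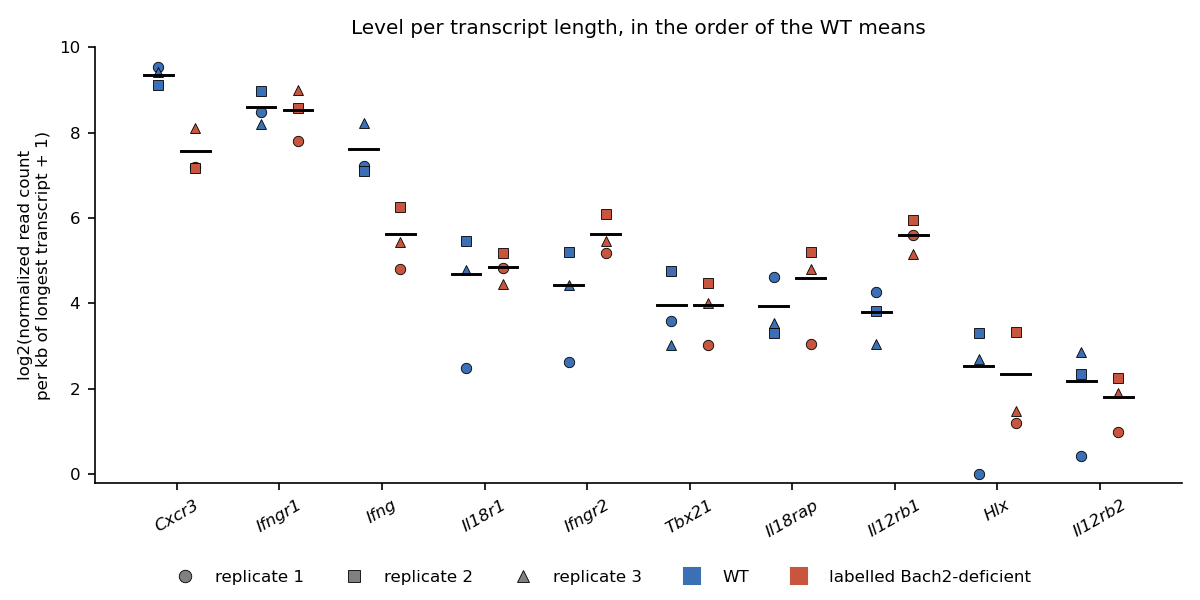
Level of each Th1 gene in each library, as log2 of normalized read counts per kb of the longest transcript plus 1 (y axis), in the order of the WT means, with WT libraries in blue, libraries labelled Bach2-deficient in red, replicates as symbols and group means as bars. *Cxcr3* leads in WT (mean 655 per kb) and *Ifngr1* in the other group (mean 371), and WT replicate 1 is the low point of *Il18r1*, *Ifngr2*, *Hlx* and *Il12rb2*.

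Other genes of the Th1 pathway were taken from 5 lists holding 79 genes of the table, of which 75 were tested. With limma on log2(value + 1) and Benjamini-Hochberg adjustment over all 11296 genes, 0 of the 75 passed an adjusted p of 0.01 and a 2-fold change, as did 0% of all genes, and 0 passed an adjusted p of 0.05. At an unadjusted p under 0.05, 10 of the 75 were higher and 11 lower, beside 1144 higher and 1157 lower of all genes tested. The smallest adjusted p was 0.141, over the lists and over all genes. On the reads of 5 libraries, edgeR's quasi-likelihood test called 0 of these genes, and DESeq2 on the same reads called 2, *Gzmk* and *Tgtp2* (0.875% of all genes it tested). With library weights, limma called 13, of which 8 were higher and 5 lower (9.99% of all genes were called), where the lowest weight was that of WT replicate 1 (0.206) and the highest that of replicate 2 labelled Bach2-deficient (5.54). Without replicate 3 labelled Bach2-deficient 5 of the listed genes passed an adjusted p of 0.05, as did 507 of all 11296 genes (4.49%), and without any other single library 0 did.

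Th1 effector and homing genes lay mostly on the lower side. Of the 19 tested, 13 were lower and 6 higher in the libraries labelled Bach2-deficient, with a median log2 difference of -0.67 beside 0.08 for all genes tested. Without WT replicate 1, 14 were lower and 5 higher, and the medians were -0.60 and 0.03. *Gzmk*, the gene of the granule protease granzyme K, was at 1073, 1113 and 1159 normalized counts in WT and at 232, 53.6 and 240.4 in the others, a log2 difference of -2.94 (standard error 0.49, limma adjusted p = 0.141) and -2.97 without WT replicate 1. DESeq2 on the reads of 5 libraries gave *Gzmk* an adjusted p of 4e-06 and a log2 difference of -2.73, and limma with library weights an adjusted p of 9.61e-05. *Nkg7*, a gene of cytotoxic granules, was at 5536, 2907 and 2633 in WT and at 962, 2417 and 1432 in the others (limma adjusted p = 0.151). Its log2 difference was -1.22, and -0.89 without WT replicate 1. *Xcl1*, a chemokine gene for dendritic cells, was at 3485, 748 and 836 and at 199.5, 743 and 59.3, where WT replicate 1 alone was high (limma adjusted p = 0.155). Its log2 difference of -2.64 was -1.93 without that library.

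The IFN-γ-induced genes, such as GTPases and antigen-processing genes, had a median log2 difference of 0.10 over 27 tested genes, 17 higher and 10 lower. Without WT replicate 1 this balance turned, to 10 higher and 17 lower with a median of -0.04. *Tgtp2*, a T cell GTPase gene, was at 1340.4, 1577 and 1987 normalized counts in WT and at 276, 302 and 853 in the others, a log2 difference of -1.96 (standard error 0.39, limma adjusted p = 0.141), and the adjusted p was 0.00137 in DESeq2 on 5 libraries and 3.91e-05 in limma with library weights. Without WT replicate 1 its log2 difference was -2.09. *Tgtp1*, a near-identical neighbour with which it may share reads, was at 450.2, 574 and 401 and at 36.9, 153 and 290.5 (log2 difference -1.98, and -2.01 without WT replicate 1, limma adjusted p = 0.155, and 0.00309 with library weights), so the split between these genes is uncertain. *Tap1*, a peptide transporter subunit, went the other way, at 527, 607 and 654 in WT and 2054, 1287 and 892 in the others, a log2 difference of 1.16 (standard error 0.29, limma adjusted p = 0.141, and 0.000791 with library weights) and 1.08 without WT replicate 1. The most abundant gene of the list, the immunoproteasome gene *Psmb9*, differed by -0.05 (standard error 0.19), and by -0.11 without WT replicate 1.

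Genes of IFN-γ receptor signalling and its inhibitors had a median log2 difference of 0.20 over 11 tested genes, 9 higher and 2 lower. Without WT replicate 1 the median was 0.13, with 7 higher and 4 lower. *Pias1*, an inhibitor of cytokine signalling, was at 1394, 960.2 and 1002 normalized counts in WT and at 418, 516 and 609.6 in the others, without overlap (log2 difference -1.12, standard error 0.24, limma adjusted p = 0.141; -0.95 without WT replicate 1). *Ptpn2*, a phosphatase of JAK and STAT proteins, was also lower in each library labelled Bach2-deficient, at 1799 ± 152 and 1156 ± 263 (SD, n = 3; limma adjusted p = 0.162), and the phosphatase gene *Ptpn11* was higher, at 1111 ± 153 and 1915 ± 451 (SD, n = 3; limma adjusted p = 0.151). Their log2 differences were -0.66 and 0.76, and without WT replicate 1 -0.61 and 0.65. Among 11 Th1 transcription regulators the median was 0.43 (0.40 without WT replicate 1), with *Ets1* (limma adjusted p = 0.149) and *Nfatc2* (0.157) higher in each library labelled Bach2-deficient. *Ets1* was at 1833, 3283 and 2688 normalized counts in WT and at 4323, 4352 and 4347 in the others. Its log2 difference was 0.78 and that of *Nfatc2* 1.01, and without WT replicate 1 they were 0.55 and 0.80. *Eomes*, a T-box factor gene of the same list, was at 507, 155 and 72.8 in WT and at 34.0, 131 and 28.6 in the others, where the groups overlapped (limma adjusted p = 0.222). Its log2 difference of -1.80 (standard error 0.76) was -1.06 without WT replicate 1. For IL-12 and IL-18 ligands and signalling the median was 0.43 over 13 tested genes, and 0.25 without WT replicate 1. *Irak1* (limma adjusted p = 0.151) and *Tyk2* (0.185), signalling kinases of the IL-18 and IL-12 receptors, were above the WT values in each library labelled Bach2-deficient, and *Stat4*, which IL-12 activates, overlapped between groups (1581 ± 318 and 1172 ± 259, SD, n = 3; limma adjusted p = 0.322). Without WT replicate 1 the log2 difference went from 0.95 to 0.81 for *Irak1*, from 1.34 to 0.76 for *Tyk2* and from -0.44 to -0.40 for *Stat4*. With library weights the adjusted p was 0.000676 for *Irak1* and 0.00640 for *Tyk2*.

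**Figure D4:**
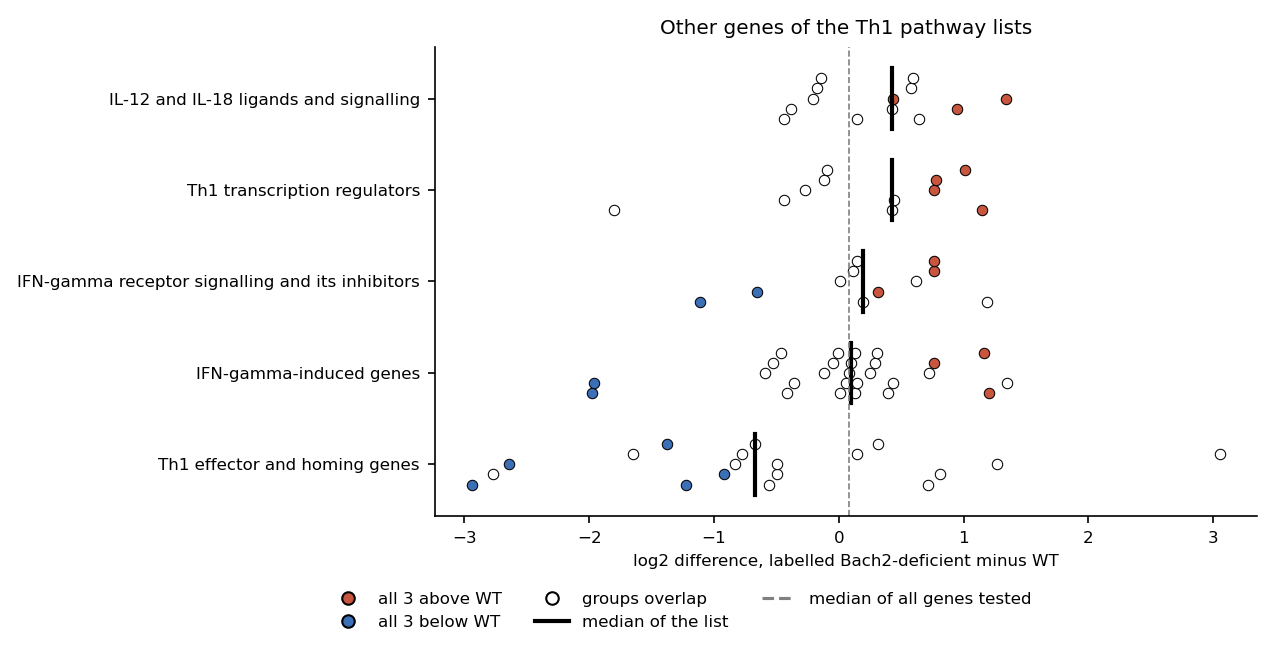
Log2 difference (x axis, libraries labelled Bach2-deficient minus WT) of each tested gene of the 5 Th1 pathway lists (y axis), filled where the groups of 3 libraries do not overlap, with the median of each list as a bar and that of all genes tested (0.08) as a dashed line. Th1 effector and homing genes have a median of -0.67, and the medians of the other lists run from 0.10 to 0.43 with all 6 libraries.

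Markers of other cells were examined because they can carry the same transcripts. The sort for CD4+B220- cells is meant to leave out B cells, CD8 T cells and NK cells, and its purity is not given in the sources used here. A list is said to be led by the gene with its highest mean over all 6 libraries. NK and innate lymphoid genes, as NK cells also make IFN-γ, summed to 1467, 5060 and 2458 normalized counts in the WT libraries and to 2937, 7296 and 1649 in the others, overlapping, and were led by *Tyrobp*. Of the 8 tested, 6 were higher and 2 lower, with a median log2 difference of 0.32. Without WT replicate 1 this turned to 2 higher and 6 lower, with a median of -0.17. *Klrb1c* had a log2 difference of -1.01 with overlap, and was lower without overlap (-1.44) once WT replicate 1 was left out. CD8 T cell genes, led by *Cd8b1*, summed to 176, 786 and 552 and to 361, 332 and 413, with 2 of 2 lower, also without WT replicate 1. Their median log2 difference of -0.27 became -0.91 without that library. *Cd8b1* overlapped between the groups (-0.25) and was lower without overlap (-0.87) once that library was left out, while the other gene overlapped in both cases. Myeloid and dendritic cell genes, led by *Lyz2*, summed to 2473, 8326 and 4242 and to 2201, 5681 and 1878, with 4 tested genes higher and 4 lower (3 and 5 without WT replicate 1). B cell genes, led by *Cd79b*, summed to 206, 785 and 495 and to 214, 248 and 272. Of the 5 tested, 4 were lower (5 without WT replicate 1), with a median log2 difference of -0.80 (-1.26 without it), and *Ms4a1* was lower without overlap, at 35.3, 33.7 and 45.8 in WT and at 2.96, 2.68 and 10.2 in the others (log2 difference -2.83, and -2.88 without WT replicate 1, limma adjusted p = 0.155). *Cd79a* (log2 difference -1.72 with all libraries and -2.75 without WT replicate 1) and *Cd79b* (-0.80 and -1.26) were lower without overlap once that library was left out. Gamma-delta and NKT cell genes, led by *Tcrg-C1*, summed to 216, 357 and 90.5 and to 225, 145 and 205. The 2 tested, *Trdc* and *Tcrg-C1*, are gamma-delta genes, with 2 of 2 lower (0 of 2 without WT replicate 1). *Zbtb16* of the same list did not pass the filter. It was at 0, 2.24 and 0 in WT and at 7.39, 17.4 and 3.07 in the others. The part of these cells in the differences of the Th1 genes was not tested.

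Markers of T helper types were summed in the same way. Th2 genes, led by *Il4*, summed to 1572, 1434 and 2158 in WT and to 3252, 4727 and 3355 in the others, with 5 of 6 tested genes higher, also without WT replicate 1. Th17 genes, led by *Rora*, summed to 1758, 1384 and 1039 and to 1373, 734 and 815, with 5 of 7 lower (4 without WT replicate 1). Their median log2 difference of -0.27 became -1.815 without that library. *Rora* itself overlapped between the groups, with a log2 difference of 0.73 (0.30 without WT replicate 1), while *Ccr6*, with the highest WT mean of the list, and *Il17f* were lower without overlap, by -2.56 and -4.70 (-2.11 and -3.85 without WT replicate 1; limma adjusted p = 0.141 for both). Treg genes, led by *Ikzf2*, had 6 of 6 lower with and without WT replicate 1, and sums of 6506, 6940 and 8687 and of 6958, 5898 and 5271. The Tfh genes, led by *Sh2d1a*, had 5 of 10 higher, or 4 without WT replicate 1 (sums 21876, 26339 and 35992 against 27274, 20047 and 26398), and *Cxcr5* and *Pdcd1*, used for the sort, were present in each library. T cell identity genes, led by *Trbc2*, had 7 of 8 lower with and without WT replicate 1, with sums of 93890, 93619 and 121220 and of 76026, 75283 and 90449. With limma, 0 genes of these 10 marker lists passed an adjusted p of 0.05. Their part in the differences of the Th1 genes was not tested.

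The genes closest in profile to *Ifng* over the 6 libraries, by root mean squared distance of centred log2(value + 1), were *Trav9n-4* (0.29), *Foxp3* (0.33) and *Ube2nl* (0.38), where the median distance of all genes was 1.28. For *Ifng*, as for *Il12rb1*, such a distance includes the difference between the groups. *Trav9n-4* and *Ube2nl* have close copies elsewhere in the genome, so that their counts are uncertain. *Foxp3*, at 222, 315 and 344 normalized counts in WT, was at 47.3, 140.0 and 91.0 in the others, with the same order of the libraries as *Ifng* in the latter group and another order in WT. Closest to *Tbx21* were *Cmah* (0.28), *Kcnq5* (0.31) and *Rhoc* (0.31), with a median over all genes of 0.86. For *Il12rb1* they were *A530017D24Rik* (0.21), *E030037K01Rik* (0.25) and *Rbm12* (0.25), with a median of 1.17. *Rbm12* was at 124, 109.9 and 61.3 in WT and at 287, 308 and 218 in the others, and its WT values have the same order as those of *Il12rb1*.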

How the data were processed

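RNA from sorted Tfh cells was sequenced, with 3 samples of each genotype. The cDNA was amplified with the SMARTer Ultra Low kit, so PCR copies could not be told apart. Per the study's methods, the authors aligned reads with Tophat2 and counted them per gene with HTSeq, while the submitters' processing notes name STAR 2.5.2b, DESeq, DESeq2 1.20.0, R 3.5.1 and GRCm38. The deposited signal is a count per gene divided by a size factor of each library. Strandedness and annotation are not given in the sources used here.

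From these values, log2(value + 1) was fitted by limma 3.58.1 (R 4.3.3) with a variance trend. The 11296 genes fitted reached 10 normalized counts in 3 or more libraries. Adjusted p-values are Benjamini-Hochberg over all of these genes. The thresholds (0.01 and 2-fold) follow the study's methods. A fold on the log2(value + 1) scale understates the change of low genes. For 1 gene in groups of 3, the smallest 2-sided p of an exact permutation test is 0.1. The depth was 5045131 to 10987752 recovered reads in 5 libraries. WT replicate 1 was left out of the count tests (edgeR 4.0.16, DESeq2 1.42.0), because its step of 1.01 is too near a power of 10 for the rule on recovered reads. Intervals cover counting error only.

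Transcript length and GC content came from the longest transcript in GENCODE M21 (14329 genes matched by symbol, 364 by an older symbol), gene positions from the same annotation, and promoters from RefSeq. Genes were named by a rule: *Bach2*, the 10 Th1 genes, up to 3 genes with the smallest p of each pathway list, the most abundant gene of each marker list, and the 3 genes closest in profile to *Ifng*, *Tbx21* and *Il12rb1*. *Klrb1c*, *Ccr6*, *Il17f*, *Pdcd1*, *Cxcr5*, *Psmb9*, *Eomes*, *Ms4a1*, *Cd79a*, *Trdc* and *Zbtb16* were named after their values were seen. Some genes that the rule names are not reported here. The genes and lists were chosen with earlier results of these data known. The procedures were tested on simulated data. The simulated spread between samples was taken from the 5 libraries with recovered reads. It thus lacks the spread that WT replicate 1 adds to the fit of all 6 libraries. Alternatives were other pseudocounts, filters, normalizations, variance models, library weights, thresholds, count tests, the replicate number as a block, and fits without each library.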

Additional observations from a re-analysis of the deposited data

How the results depend on the processing

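As in the 6-library limma fit, where 2301 of 11296 genes had an unadjusted p under 0.05, 0 genes were called higher and 0 lower, and 0 listed genes, under the other pseudocounts, filters and normalizations, without the trend in length and GC content, without the variance trend, at an adjusted p of 0.05, and with edgeR (2070 genes at an unadjusted p under 0.05). Leaving out each library gave 0 to 0 in each case, although 507 genes passed an adjusted p of 0.05 without replicate 3 labelled Bach2-deficient. DESeq2 on 5 libraries gave 35 higher, 60 lower and 2 listed, and library weights 561, 567 and 13. The cause was not tested.

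*Ifng*, *Cxcr3*, *Il12rb1*, *Bach2*, *Ifngr2* and *Il18rap* had the same direction under all alternatives run. *Bach2* was at 1.105 once the trend in length and GC content was removed, and at 2.36 with library weights, where *Il12rb1* was at 2.62 and *Il18rap* at 1.445. With that trend removed, *Ifng* went from -2.02 to -1.56 and *Il12rb1* from 1.92 to 1.56, both nearer to no difference. *Ifngr2* went from 1.55 to 1.36 and *Il18rap* from 0.54 to 0.29, while *Cxcr3* stayed at -1.87, beside -1.86. *Tbx21* turned to -0.0247 with median rescaling, -0.15 with quantile normalization, -0.25 with the trend removed, -0.19 with edgeR and -0.21 with DESeq2. With library weights it was at 0.78. *Il12rb2* went from -0.08 to -0.99 with quantile normalization, -0.98 with edgeR and -1.04 with DESeq2. *Hlx* turned to -0.0800 with pseudocount 5, -0.73 with quantile normalization, -0.0841 with the trend removed, -0.74 with edgeR and -0.80 with DESeq2. *Il18r1* turned to -0.33 with edgeR and -0.35 with DESeq2, and *Ifngr1* to 0.0715 with the trend removed and 0.0739 with library weights. A mean of at least 50 left out *Tbx21*, *Il12rb2* and *Hlx*. The cause was not tested.

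With single libraries left out, the log2 difference ran from 1.31 to 1.93 for *Bach2*, -2.40 to -1.67 for *Ifng*, -0.35 to 0.57 for *Tbx21*, -2.17 to -1.70 for *Cxcr3*, 1.56 to 2.21 for *Il12rb1*, -1.08 to 0.57 for *Il12rb2*, -0.31 to 1.27 for *Il18r1*, 0.09 to 1.23 for *Il18rap*, -1.15 to 1.05 for *Hlx*, -0.37 to 0.22 for *Ifngr1* and 0.77 to 2.13 for *Ifngr2*. Of the Th1 genes, 2 to 3 were lower without overlap and 1 to 3 higher, the 3 higher without replicate 1 labelled Bach2-deficient. In the same fits, 14% to 23% of all genes tested were lower without overlap and 17% to 27.2% higher, and nothing is read from these counts.

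Whether the shared replicate numbers mark pairs is not given in the sources used here. Deviations from the group means correlated by -0.0689, 0.116 and -0.0386 between libraries of 1 number. Between libraries of different numbers they correlated by -0.145 to 0.117. With 3 libraries per group, these values can neither show nor exclude a pairing. With the replicate block, limma called 0 genes higher and 0 lower, 0 listed genes, and gave the same log2 differences. For genes with few reads, counting error and the spread between samples cannot be told apart, as PCR copies count as reads.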

Other observations

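*Il18r1* and *Il18rap* lie in a cluster of IL-1 receptor family genes on chromosome 1 of GRCm38, and neighbours differed in their values. *Il1rl1*, the gene of the IL-33 receptor chain ST2, ends just before *Il18r1* (40429570 to 40465415). It was at 82.8, 11.2 and 44.7 normalized counts in WT and at 171, 275 and 71.6 in the libraries labelled Bach2-deficient. WT replicate 1, the lowest library of *Il18r1* at 19.2, was the highest WT library of *Il1rl1* and of *Il18rap*. *Il1r1*, further upstream, was at 99.9, 251 and 237 in the WT libraries and at 452, 217 and 231 in the others, and *Il1rl2* at 91.8, 50.5 and 43.7 and at 76.9, 80.4 and 65.5.

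Downstream of *Ifng*, *Dyrk2* (chromosome 10, 118855603 to 118870209), was at 2.02, 33.7 and 25.0 normalized counts in WT and at 63.6, 31.5 and 26.6 in the others. *Cand1*, further along the chromosome, was at 675, 467 and 374 and at 704, 647 and 587. The groups overlapped for both genes, unlike for *Ifng*. These values were set side by side after they were seen, and no test was made.

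*Gzmb* and *Gzmk*, granzyme genes of the Th1 effector list, lay on opposite sides. *Gzmb* was at 2.02, 88.6 and 38.5 normalized counts in WT and at 79.8, 324 and 231 in the libraries labelled Bach2-deficient (log2 difference 3.05, standard error 1.09, limma adjusted p = 0.177, and 0.00245 with library weights), with overlap between the groups, where *Gzmk* had a log2 difference of -2.94. WT replicate 1 had the lowest *Gzmb* of all 6 libraries, and without it the log2 differences were 1.62 for *Gzmb* and -2.97 for *Gzmk*. *Gzmb* was named after its values were seen.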
